A study of Phormium tenax with 2 samples.

Results

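The unigenes described here had at least 100 reads in leaves of *Phormium tenax* (New Zealand flax) under drought stress and 0 reads in leaves of the control group. They were chosen on the rounded estimated counts of both libraries, and 94 of the 75265 assembled unigenes met the rule. The drought library (T01) came from plants whose soil was held at 25% of its saturated water content, and the control library (T02) from plants at 70%. All plants were 1 year old, and the harvest followed 10 days at the target moisture. Each condition had 1 library from leaf blades, made by mixing equal amounts of RNA from 3 plants, so the spread between plants was lost and no test between conditions was possible. The 0 reads therefore describe 1 control pool. A change in the share of a cell type and a change in RNA per cell cannot be told apart in whole leaf blades. The deposited tables hold no gene names, so leaf marker genes could not be checked and the 94 unigenes are called by their identifiers.

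A unigene is a cluster of transcripts that the authors assembled from the reads with Trinity, and it stands in for a gene where no genome is at hand. An identifier such as c44124.graph_c0 names a component (c44124), a set of assembled sequences that overlap, and a unigene within it. Plants that lose water close their stomata and make abscisic acid, and many genes that are nearly silent in watered leaves are then switched on. Late-embryogenesis-abundant proteins, which shield cell contents from drying, are a well-known class of this kind, and transcription factors of the MYB and MYC (bHLH) families are among the regulators. Transcripts that are undetected in watered leaves and abundant in droughted ones are therefore a pattern that drought studies look for.

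In total, 17744093 drought reads and 18540664 control reads were assigned. Of the 60256 unigenes with drought reads, 20951 (34.8%) had 0 control reads, and of the 50459 with control reads, 11154 (22.1%) had 0 drought reads. Of the 13687 unigenes with at least 100 drought reads, the 94 with 0 control reads made up 0.687%. In the opposite direction, 21 of the 12735 unigenes with at least 100 control reads had 0 drought reads, which is 0.165%. A log2FC of at least 2, or a 4-fold higher scaled count in drought, was reached by 8.44% of the unigenes with at least 100 drought reads. Here log2FC is the log2 ratio of drought over control counts, scaled by edgeR's TMM method with 1 read added to each, and all 94 unigenes pass that value because of the rule. The control value of the 94 was not a product of rounding, since the deposited estimated count, FPKM and TPM were all exactly 0 in the control table for each of them.

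Most of the 94 unigenes were moderately abundant. Their drought reads ranged from 100 to 19634 with a median of 171.5, and 54 had fewer than 200 reads, 20 had 200 to below 500, 10 had 500 to below 1000 and 10 had 1000 or more. Together they took 58736 reads, or 0.331% of the drought library, and 5100 TPM. The reads were unevenly divided. The first unigene alone held 33.4% of them, the first 5 held 54.9% and the first 10 held 67.3%. Without the first unigene the remainder took 0.220% of the library. In reads scaled for length, the median of the 94 was 22.4 FPKM or 24.2 TPM, with a range of 3.60 to 1280 TPM, and 81 unigenes reached 10 TPM, 15 reached 50 TPM and 8 reached 100 TPM. The other unigenes with at least 100 drought reads had a median of 27.4 TPM in the drought library, so the medians of both sets were close. At like read numbers they were not, and the 94 had the higher median TPM in each bin of drought reads. The medians were 16.4 against 12.3 TPM at 100 to below 200 reads and 243 against 79.8 TPM at 1000 or more. At a given read number a shorter unigene has a higher TPM, and the 94 were the shorter set in each bin, as described below. The higher TPM within bins is therefore not a result separate from length.

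**Figure D1:**
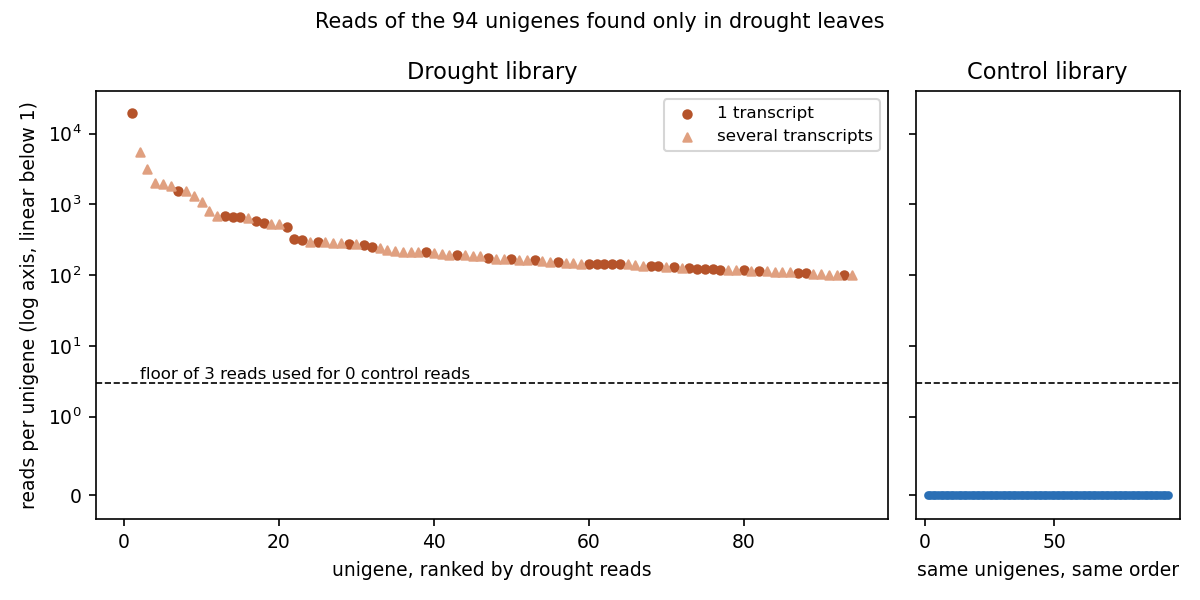
Reads per unigene (log axis, linear below 1) for the 94 unigenes, ranked by drought reads, with the drought library on the left and the control library on the right (same order). Circles are unigenes with 1 assembled transcript and triangles those with several. One unigene stands apart at 19634 reads, and every control value is 0.

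With 0 control reads a fold change has no upper limit, so a lower bound was taken with a floor of 3 control reads per library. The floor is a set value. The exact 95% Poisson interval of a count of 0 reaches 3.69 reads, with which every bound would be somewhat smaller. A unigene at the threshold of 100 drought reads would have had 85.6 control reads at equal abundance after TMM scaling. The lower bounds of the 94 unigenes ran from at least 28.5-fold to at least 5604-fold higher in drought, with a median of 49-fold. These bounds use the drought reads as counted and cover no variation between plants. For the median unigene the counting error of the drought reads (exact 95% Poisson interval) moved the bound between 41.8-fold and 56.7-fold.

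The unigene c44124.graph_c0 (1008 bp, 1 transcript) had 19634 reads and 1280 TPM in the drought library, against 0 reads and 0 TPM in the control library. It was the 69th most abundant of all unigenes by drought reads and the 49th by drought TPM. The unigene was at least 5604-fold higher in drought, or at least 5526-fold when the lower end of the counting interval of its drought reads was used. Its estimated count, 19633.72, was not whole, as happens when reads are divided between assembled sequences. No other unigene of the 94 came near it. The next, c54155.graph_c0 (1087 bp, 5 transcripts), had 5497 drought reads and 331 TPM, against 0 control reads, and was at least 1569-fold higher. The third, c62240.graph_c0 (1463 bp), had 3136 drought reads and 137 TPM, against 0 control reads, with a bound of 895-fold. The drought reads of these 3 unigenes lie far outside one another's counting intervals, and they made up 48.1% of the reads of the 94.

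A second tier of 7 unigenes had between 1085 and 1991 drought reads, against 0 control reads in each. The unigene c52232.graph_c0 (526 bp) had 1991 reads and 269 TPM in drought. The unigenes c59859.graph_c0 (563 bp) and c59859.graph_c1 (337 bp) had 1970 and 1085 reads in drought, and their levels per length were close, at 246 and 253 TPM. They are the only pair of the 94 from the same component, so they are not counted as independent. The remaining 4 were c53343.graph_c0 with 1830 drought reads, c39080.graph_c0 with 1551, c58518.graph_c0 with 1530 and c46301.graph_c0 with 1334. Their order changed once length was considered. The short unigene c58518.graph_c0 (462 bp) reached 241 TPM in drought, whereas c53343.graph_c0 (1483 bp) and c39080.graph_c0 (1377 bp) reached 79.1 and 72.5 TPM. By TPM the first 5 unigenes were c44124.graph_c0, c54155.graph_c0, c52232.graph_c0, c59859.graph_c1 and c59859.graph_c0. The deposited tables pair none of these with a gene name.

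The unigenes with few reads show where the threshold fell. Just inside it were c27712.graph_c0 and c52400.graph_c0 with 100 drought reads each and c46920.graph_c0 with 101, all with 0 control reads. The estimated count of c52400.graph_c0 was 99.99, so it entered by rounding. Just outside were c43882.graph_c0 with 98 drought reads and c56267.graph_c0 and c56674.graph_c0 with 96 each, also with 0 control reads. There was no break at 100, since 8 unigenes with 100 to 109 drought reads and 11 with 90 to 99 had 0 control reads. On the other side of the rule, 21 unigenes with at least 100 drought reads had exactly 1 control read and 20 had 2. The most abundant of those with 1 control read was c55227.graph_c1, with 6201 drought reads (645 TPM) and a log2FC of 11.4 (exact 95% Clopper-Pearson interval of the read ratio, 9.90 to 17.7). It was followed by c46688.graph_c0 with 2301 drought reads and c51945.graph_c0 with 1377. By drought reads, c55227.graph_c1 would rank second among the 94, and a single control read kept it out.

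Unigenes with reads in 1 library only were compared between the directions at like read numbers. The share with 0 control reads was 35.9% among unigenes with 10 to 19 drought reads, 11.4% at 20 to 49 reads and 3.14% at 50 to 99 reads. Above the threshold of the rule it was 1.81% at 100 to below 200 drought reads, 0.479% at 200 to below 500, 0.356% at 500 to below 1000 and 0.269% (10 of 3713, exact 95% interval 0.129% to 0.495%) at 1000 reads or more. In the opposite direction the share with 0 drought reads was 17.3% at 10 to 19 control reads and 0.474% at 100 to below 200 control reads, and it was lower than the drought-only share in each of the 7 bins. At 1000 control reads or more, 0 of 3347 unigenes had 0 drought reads, with an exact 95% interval of up to 0.110%. Setting the opposite threshold at 85.6 control reads, which equal 100 drought reads after scaling, gave 26 control-only unigenes in place of 21. The intervals take unigenes as independent and describe these 2 pools, so the shares are a description and no test of drought against control.

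**Figure D2:**
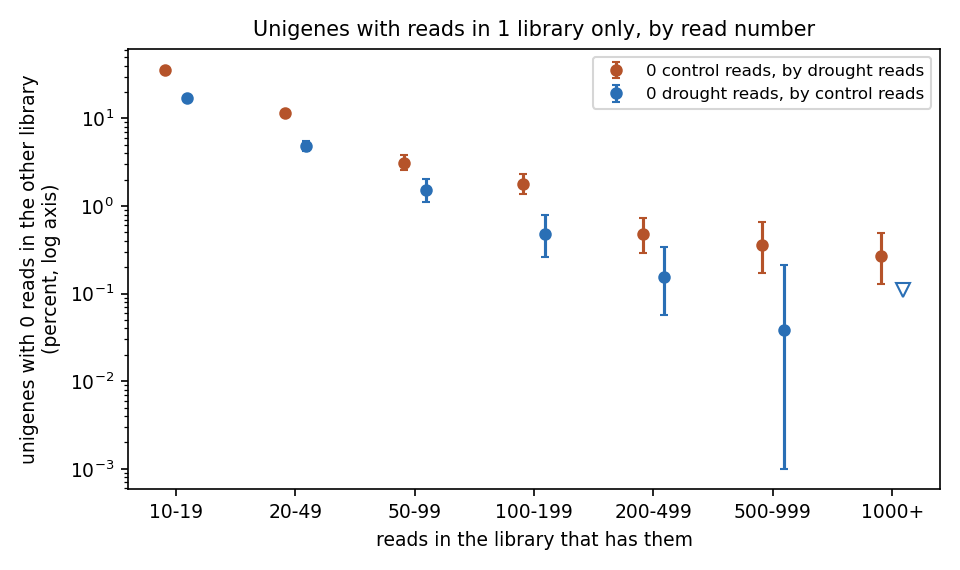
Percent of unigenes with 0 reads in the other library (log axis), by the number of reads in the library that has them. Brown points are unigenes with drought reads and 0 control reads, blue points those with control reads and 0 drought reads, bars are exact 95% intervals over unigenes, and the open triangle is the upper limit for 0 of 3347. Both shares fall with read number, and the brown points lie above the blue ones, at 1.81% against 0.474% for 100 to below 200 reads.

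The 94 unigenes were shorter than others of at least 100 drought reads and longer than the assembly as a whole, in which the median of all unigenes was 297 bp. Their length in the drought table had a median of 628 bp (order-statistic 95% interval 541 to 782 bp) and ranged from 262 to 3634 bp, whereas the other unigenes with at least 100 drought reads had a median of 1142 bp. Of the 94, 62 (66.0%) were longer than 500 bp and 23 (24.5%) were longer than 1000 bp. Among the others, 94.3% were longer than 500 bp and 59.8% were longer than 1000 bp. The longest of the 94 was c59290.graph_c1 (3634 bp), with 523 drought reads but 8.94 TPM, followed by c50244.graph_c0 (1783 bp, 101 reads, 3.60 TPM) and c61524.graph_c0 (1567 bp, 520 reads, 21.2 TPM). The shortest were c66162.graph_c0 (262 bp, 133 reads), c27712.graph_c0 (268 bp, 100 reads) and c35158.graph_c0 (290 bp, 125 reads), which reached 43.4, 31.6 and 35.5 TPM in drought. The lowest TPM of the 94 therefore belonged to a long unigene at the threshold, while these 3 short ones stood above the median of 24.2 TPM.

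Among the other unigenes length increased with read number, so the comparison was repeated within bins of drought reads. At 100 to below 200 drought reads the median length was 566 bp in the 54 drought-only unigenes and 765 bp in the others. At 200 to below 500 reads it was 625 bp in the drought-only unigenes and 1014 bp in the others. At 500 to below 1000 reads the medians were 991 bp in the 10 drought-only unigenes and 1310 bp in the others, and at 1000 reads or more they were 906 bp in the 10 drought-only unigenes and 1611 bp in the others. The drought-only unigenes were the shorter set in all 4 bins. The 21 control-only unigenes had a median of 596 bp in the control table. Since read number and length move together, their part in the absence of control reads was not tested.

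**Figure D3:**
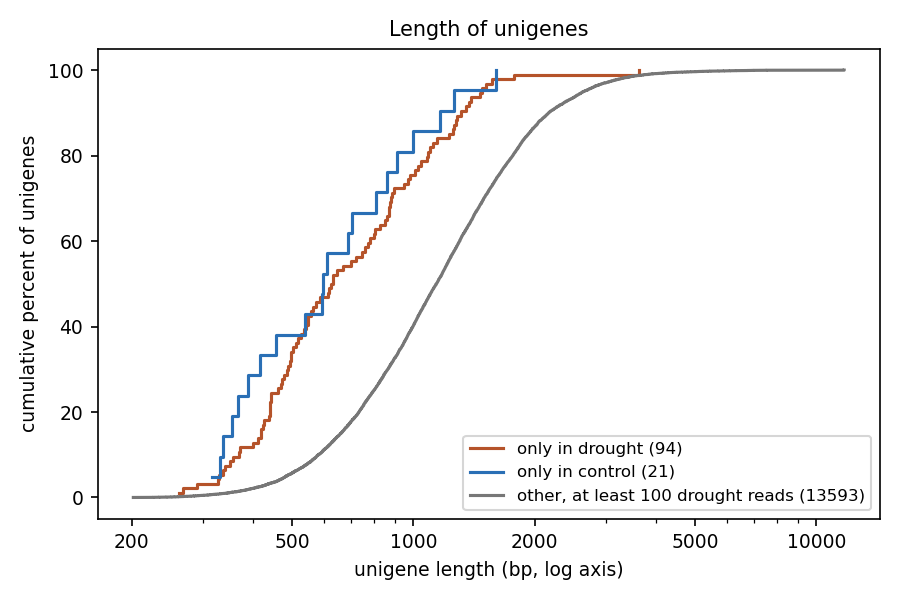
Cumulative percent of unigenes against unigene length (bp, log axis, drought table; control table for the control-only set) for the 94 drought-only unigenes (brown), the 21 control-only unigenes (blue) and the 13593 other unigenes with at least 100 drought reads (grey). The medians are 628, 596 and 1142 bp, and both coloured curves lie to the left of the grey one over most of the range.

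The drought-only unigenes also held fewer transcripts than the others of at least 100 drought reads, though not fewer than the assembly as a whole. A single assembled transcript made up 38 of the 94 (40.4%), against 22.8% of the other unigenes with at least 100 drought reads and 11 of the 21 control-only unigenes. The median was 2 transcripts in the 94 and 3 in the others, against 1 in the control-only unigenes and 1 over all unigenes. At 1000 reads or more the order turned, with 2 of the 10 drought-only unigenes and 25.9% of the others holding a single transcript. The most transcripts were 18, in c51454.graph_c0 (159 drought reads, named here after its values were seen). Together the 94 unigenes held 227 transcripts.

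For the 56 unigenes with several transcripts, the length in the control table equalled the plain mean over transcripts, as far as the deposited decimals can show. Multiplied by the number of transcripts it gave a whole number, within 0.005 bp per transcript, in 56 of 56, and 31 of these lengths were not whole before multiplying. The length in the drought table was longer in 46 of them, shorter in 9 and the same in 1, with a median difference of 91.3 bp and a range of -155 to 755 bp. If the drought length is weighted by transcript abundance, which no source at hand states, a longer drought length means more weight on the longer transcripts than in a plain mean. The share of reads on each transcript was not available, and the other unigenes were not compared in this way. In c50244.graph_c0 the drought length was 1783 bp, against 1028 bp in the control table, and in c61524.graph_c0 it was 1567 bp, against 968 bp. The unigene c59859.graph_c0 went furthest the other way, with 563 bp in the drought table and 718 bp in the control table. Among the 10 control-only unigenes with several transcripts, the control length was the longer in 7.

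**Figure D4:**
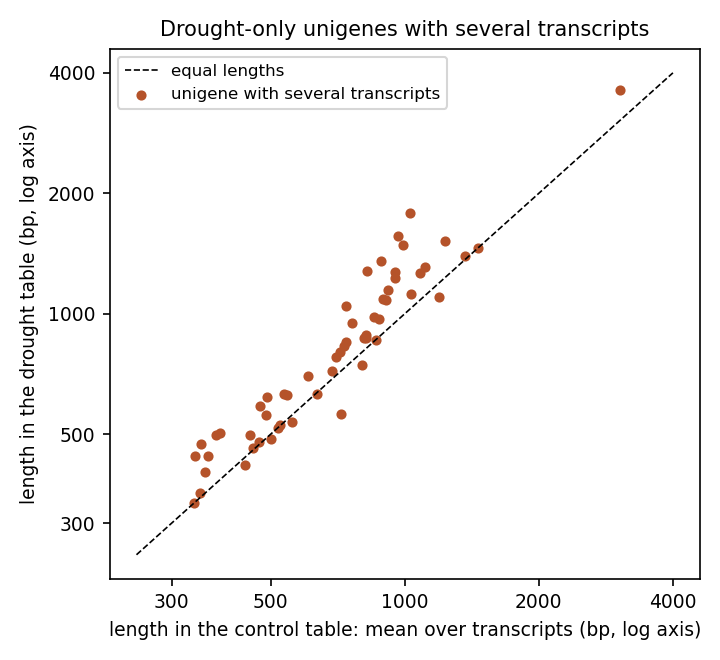
Length in the drought table against length in the control table (both bp, log axes) for the 56 drought-only unigenes with several transcripts; the dashed line marks equal lengths. Of the points, 46 lie above the line and 9 below it, and the uppermost point is c59290.graph_c1 at 3634 bp.

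Reads that fit several assembled sequences are divided by the counting and leave estimated counts that are not whole. The drought count was whole, within 0.005 reads, in 61 of the 94 unigenes (64.9%, exact 95% interval 54.4% to 74.5%) and in 44.4% of the other unigenes with at least 100 drought reads. The difference was 20.5 percentage points, but whole counts were also more frequent at low read numbers, at 76.0% of the others with 100 to below 200 drought reads and 12.0% of those with 1000 or more. When the others were weighted to the read bins of the 94, their share was 60.8%, which lies inside that interval, and the difference was 4.14 percentage points.

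The 94 unigenes came from 93 components, and 76 of the unigenes (80.9%) were the only unigene of their component, against 73.8% of the others. These shares were not matched by read number, so nothing is read from their difference. In 16 components a drought-only unigene stood beside other unigenes, 19 in number, and these neighbours tell whether the rest of the component was seen in the control library. Of the 19 neighbours, 14 had control reads, 12 had at least 10 and 9 had at least 100. For 12 of the 94 unigenes, then, a sequence of the same component was present in control leaves. The 5 neighbours with 0 control reads had from 0 to 59 drought reads. When all reads of a component were added up, 82 components had at least 100 drought reads and 0 control reads, and 81 of them held one of the 94.

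The neighbours with at least 100 control reads had log2FC values between -1.31 and 0.90, and all 9 had reads in both libraries. In component c19536, c19536.graph_c1 had 129 reads in drought against 0 in control, while its neighbour c19536.graph_c0 had 5226 reads in drought against 10536 in control (log2FC -1.24, 95% interval -1.28 to -1.19). In c61351, c61351.graph_c1 had 143 reads in drought against 0 in control, and c61351.graph_c0 had 1366 and 2093 (log2FC -0.84). In c60868, c60868.graph_c0 had 664 reads in drought against 0 in control, and its neighbours c60868.graph_c1 and c60868.graph_c2 had log2FC values of 0.90 (3203 drought reads, 1468 control reads) and 0.20 (379 and 283). The low log2FC of these neighbours beside the drought-only unigenes follows in part from the rule and from choosing neighbours with many control reads, so nothing is read from the contrast. The unigene c62673.graph_c0 had 104 reads in drought against 0 in control beside c62673.graph_c2 with 1409 and 847 (log2FC 0.51), and c62650.graph_c1 had 126 reads in drought against 0 in control beside c62650.graph_c0 with 664 and 687 (log2FC -0.27). The other 3, added after their values were seen, were c58115.graph_c1 with 253 and 537 (log2FC -1.31), c60084.graph_c1 with 780 and 495 (log2FC 0.43) and c64688.graph_c0 with 521 and 385 (log2FC 0.21). Across the 9 neighbours, log2FC was above 0 in 5 and below 0 in 4.

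A pair with the reverse pattern was found in component c52232 and is given here because its values stood out. The drought-only c52232.graph_c0 had 1991 reads in drought against 0 in control, while c52232.graph_c1 (780 bp) had 1 read in drought against 81 in control (log2FC -5.52, 95% interval -11.9 to -4.04). The reads of this component thus lay almost wholly on different unigenes in the 2 libraries. In c64654, also chosen after its values were seen, the neighbours went the same way as the drought-only unigene. There c64654.graph_c0 had 142 reads in drought against 0 in control, c64654.graph_c1 had 59 and 0, and c64654.graph_c2 had 360 and 10 (log2FC 4.82, 95% interval 4.05 to 6.02). The similarity of sequences within a component was not examined here, and how the counting divided reads between them was not tested.

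**Figure D5:**
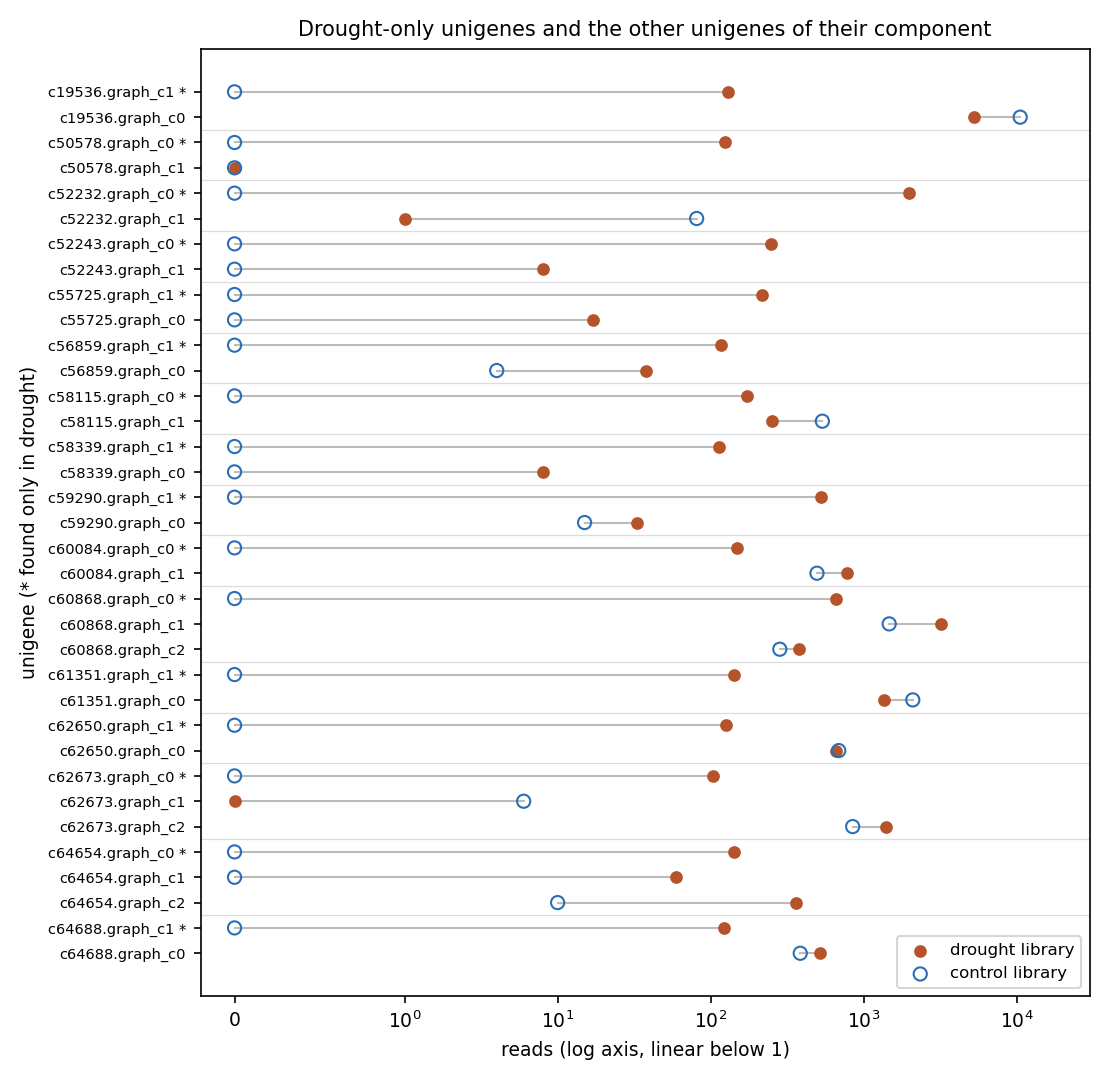
Reads (log axis, linear below 1) of the 16 drought-only unigenes that share a component with others (marked *) and of their 19 neighbours, with filled brown circles for the drought library and open blue circles for the control library; grey lines separate components. Neighbours with many control reads, such as c19536.graph_c0 with 5226 drought and 10536 control reads, have both circles close together.

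To tie the pattern to known genes, the 62 unigenes that the paper names by identifier were looked up. None of the 62 was among the 94. Over all unigenes with at least 100 drought reads the share was 0.687% (94 of 13687). Only 45 of the 62 had that many drought reads, so nothing is read from the lack of overlap. Of the 45 with at least 100 drought reads, the fewest control reads were 2, in c54495.graph_c0, which the paper lists under starch and sucrose metabolism (named here after its values were seen). It had 1366 reads in drought against 2 in control, or 68.8 TPM in drought against 0.10 TPM in control (log2FC 8.64, 95% interval 7.34 to 12.2). Of the 62, 4 had 0 control reads, all with fewer than 100 drought reads. The paper chose its unigenes on these libraries, so their read counts here are no independent evidence of direction, and 47 of the 62 had a log2FC of at least 2. For some of them the paper also reports qRT-PCR with biological replicates and fold changes close to those of its RNA-seq. Those measurements were not analysed here.

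Of these 4, c66489.graph_c0 (808 bp) is listed as a glutathione S-transferase, an enzyme that joins glutathione to reactive compounds, and it came closest to the rule with 82 drought reads and 0 control reads (6.81 TPM in drought). The bound of its fold change was 23.4-fold. The unigene c38669.graph_c0 (586 bp), of the MYB family of transcription factors, had 43 reads in drought against 0 in control, with a bound of 12.3-fold. The unigene c67021.graph_c0 (472 bp), listed as MYC, a family of bHLH transcription factors that act in jasmonate signalling, had 40 reads in drought against 0 in control, with a bound of 11.4-fold. The fourth, c54392.graph_c1 (453 bp), is listed under starch and sucrose metabolism, the pathway of storage and transport sugars, and had 42 reads in drought against 0 in control, with a bound of 12.0-fold. Their drought levels, 5.12 to 6.81 TPM, were below the lower quartile of the 94 unigenes (14.0 TPM). This follows largely from the threshold, since all 4 had too few drought reads for the rule, so nothing is read from it. Among all unigenes, 0 control reads were found in 3.14% of those with 50 to 99 drought reads, the bin of c66489.graph_c0, and in 11.4% of those with 20 to 49, the bin of the other three.

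The authors designed primers for qRT-PCR of 2 of these 4 unigenes. The primers are shown because they are the only stretches of sequence at hand for annotated unigenes with 0 control reads. They run from 5′ to 3′ and no base is marked by capitals.
c38669.graph_c0 forward: gccctacatgtatcaagctagc
c38669.graph_c0 reverse: catccaagttccatagactccc
c67021.graph_c0 forward: gagaaaatcaacgccatcctg
c67021.graph_c0 reverse: ccttcagatcgcatccttcaag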

How the data were processed

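The reads were filtered by the authors and those of both libraries were assembled with Trinity. The submitters' processing notes also list Bowtie 0.12.2, Cufflinks and a mouse genome build with no role given, and which program made the tables is not stated in any source used here. The authors deposited estimated counts (expected counts) per unigene without normalization, FPKM values scaled for effective length and library size, and TPM values scaled for length first. Estimated counts were rounded to whole reads. All unigene entries were kept. Scaling factors came from edgeR 4.0.16 (TMM and upper quartile, beside total reads) and from DESeq2 1.42.0, both in R 4.3.3, and were tested on simulated data. Counts, shares and intervals were computed in Python 3.11.15 (pandas 2.3.3, NumPy 2.4.6, SciPy 1.17.1) and plotted in matplotlib 3.10.9. Intervals and the floor of 3 reads cover counting error only. With 1 library per condition, no test was made. The unigenes and lists were chosen with earlier results of these data known. Named were the 10 with the most reads, the 5 with the highest TPM, the 3 longest and 3 shortest, 5 with the most control reads in a partner of their component, 3 on either side of each limit of the rule, the 3 most abundant control-only unigenes, and the paper's unigenes with 0 control reads. The qRT-PCR measurements were not analysed here. Sequences of the assembled unigenes were not used here. Primers came from the paper's supplement.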

Additional observations from a re-analysis of the deposited data

How the results depend on the processing

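The number of drought-only unigenes followed the threshold. It was 195 at 50 drought reads or more, 40 at 200 or more and 20 at 500 or more, against 94 at 100 or more, and 38 of the 94 had 1 transcript only. It was 94 with deposited control counts of exactly 0, 115 with at most 1 control read, 135 with at most 2, 91 at 300 bp or more and 82 by component. The median bound of 49-fold was 59.7-fold with total reads and 57.0-fold from the deposited FPKM, and 47.9-fold and 42.2-fold with DESeq2 and upper-quartile factors. The median length of the drought-only unigenes was 0.550 times that of the others and 0.551 times over their range of reads. With the medians of the read bins averaged, weighted to the bins of the 94, the ratio was 0.683. The excess of whole-number counts was 20.5 percentage points, 18 with a tolerance of 0.05 reads, and 4.14 when weighted by read bins. The weighting by bins, the opposite threshold at equal scaled reads and leaving out component c19536, which left 13 of the 14 neighbours with control reads, were chosen after seeing the data. No paired analysis was possible because each condition has 1 library. Variation between plants could not be measured, so a control pool of other plants could hold reads of any of these unigenes. Depth limits the bounds to the floor of 3 control reads.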

Other observations

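Of the 3916 unigenes with at least 10 drought reads and 0 control reads, the 94 described above made up 2.40%.

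The 94 unigenes had a median of 171.5 and a highest value of 19634 drought reads. The control-only unigenes, 21 in number, had 100 to 703 control reads with a median of 162, which equals 189 drought reads after TMM scaling, and the highest equals 821. They took 4250 reads, or 0.0229% of the control library. The most abundant were c53779.graph_c0 with 0 drought reads and 703 control reads (28.4 TPM in control), c21608.graph_c0 with 0 and 379 (38.2 TPM), and c62109.graph_c0 with 0 and 323 (68.8 TPM). Against a floor of 3 drought reads, c53779.graph_c0 was at least 274-fold lower in drought. Of the unigenes with at least 1000 reads in 1 library, 25 of the 3713 in drought had at most 5 control reads, and 3 of the 3347 in control had at most 5 drought reads.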
